A study of Canis lupus familiaris and Eptesicus fuscus and Equus caballus with 6 samples.

Results

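The 85 Helitron models of the bat testis mRNA file are those whose class, written after the # of the model name, is DNA/HELITRON. They make up 16.6% of the 511 repeat models of that file. A model here is a repeat family's reference sequence, to which reads were assigned as if it were a transcript. All 85 carry HELI in their names, and no model of another class does, so that name and class go together. The library was made from adult testes of Eptesicus fuscus, the big brown bat, snap frozen and extracted with TRIzol. Adult testes of dog and horse, handled alike, gave the other mRNA libraries. Neither genotype nor treatment nor the number of animals is labelled for any of them. Each species had 1 mRNA library, so no value below has a replicate check and no test between groups was possible. The bat file holds repeat models only, so the tissue could not be checked against testis genes.

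Helitrons are DNA transposons that move by a rolling-circle mechanism. An autonomous Helitron encodes a single large protein that joins a Rep nuclease domain to a helicase. Shorter, non-autonomous Helitrons lack that protein and depend on one made elsewhere. The vesper bats, to which the big brown bat belongs, are known among mammals for a large and recent Helitron expansion, first described as the HeliBat elements. Reads of a Helitron model can come from the element's own transcripts or from other transcripts that hold a copy, and the deposited values do not separate these sources. Fewer cells of a type and less RNA per cell cannot be told apart in such a bulk library either.

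Reads fell on nearly every Helitron model, but unevenly. The file gives an expected count, an estimate of the reads that belong to a model in which reads fitting several models are divided among them. The Helitrons together had 9850 of 55904 expected counts, which is 17.6% of the file (exact 95% binomial interval 17.3 to 17.9%, counting error only). They make up 15.7% of the summed length of all models. As shares of TPM, the usual transcripts-per-million level, which is per length and scaled within the file, they held 13.1%. Expected counts of the single models ran from 0 to 2051, with a median of 41.7. At least 10 counts were found for 70 of the 85, or 82.4%, whereas 52.6% of all 511 models reached that number. Of these 70, 28 had 100 counts or more and 42 had 10 to 100.

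The leading model was HELITRON-10_EF, with 2051 expected counts (counting interval 1963 to 2142), or 20.8% of all Helitron reads (20.02 to 21.6%). Its length is 2154 nt and its TPM was 8913, with a deposited interval of 8411 to 9197. HELITRON-53_EF, of 672 nt, followed with 550.04 counts and a TPM of 7856 (7120 to 8440). HELITRON-26_EF, of only 421 nt, had 437 counts but the highest TPM of any Helitron, 10183 (9122 to 11002). HELIBATN3, of 1033 nt, had 427.5 counts and a TPM of 3921 (3507 to 4244). Next came HELITRON-36_EF with 341 counts and HELITRON-40_EF with 304. NHELIBAT1A_NHU and NHELIBAT1_NH had 303 counts each, and NHELIBAT1A_CRA and NHELIBAT1_CR 283 each. These 10 models held 53.6% of the Helitron reads (52.6 to 54.6%). It took 9 models to reach 50% of the reads and 38 to reach 90%, while the 42 lowest models together held 7.28%.

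**Figure D1:**
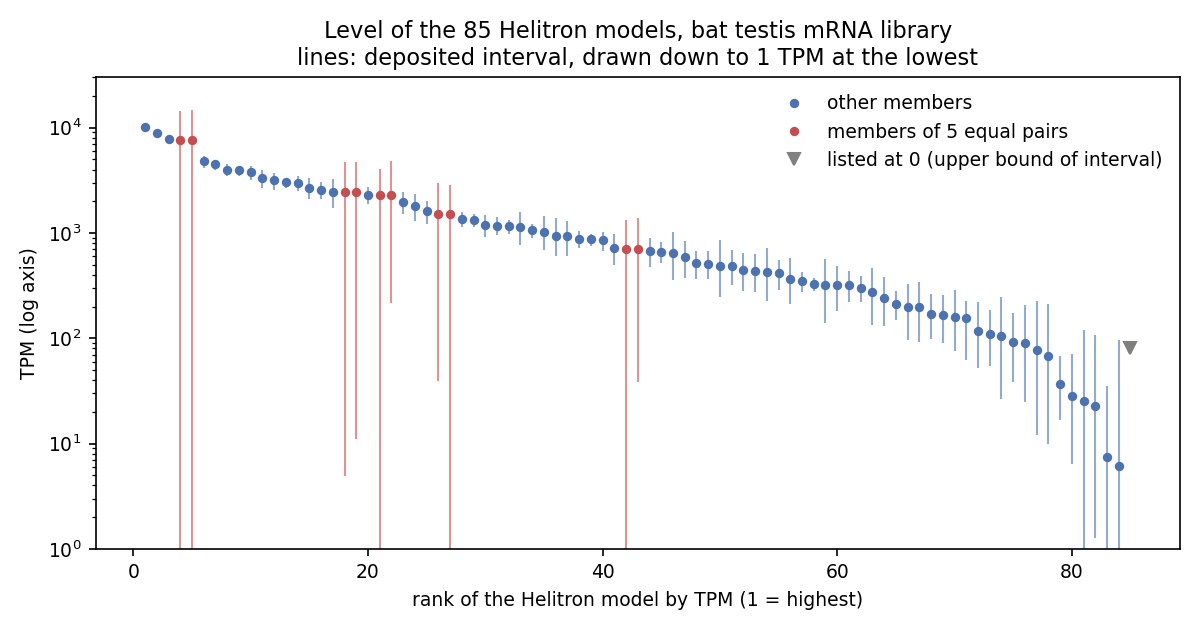
TPM of each of the 85 Helitron models (y axis, log scale) in order of TPM (x axis), with the deposited interval of each as a vertical line and the 10 members of equal pairs in red. Levels above 0 ran from 10183 TPM for HELITRON-26_EF down to 6.12 for MLUC.HELIBAT_N1B, MLUC.HELITRON_R385A was listed at 0, and the intervals of the red members began at 214 TPM or lower, far below their TPM, while other models of like TPM had short intervals.

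Ordered by TPM instead of by reads, short models moved up. The list of the 10 highest by TPM shared 7 models with the list by reads, and its other members were HELITRON-18_EF (4784 TPM, 423 nt), HELITRON-2_EF (3993 TPM, 525 nt) and HELITRON-27_EF (3804 TPM, 425 nt). Intervals of neighbours in this order mostly overlapped, as those of models next to each other in a sorted list often do. Such an overlap does not show that the levels are equal. The interval of HELITRON-26_EF overlapped that of HELITRON-10_EF, which in turn overlapped that of HELITRON-53_EF. Leaving out the 10 models of the equal pairs described below, 73 of 74 neighbouring pairs had overlapping intervals. The exception lay between HELITRON-53_EF, whose interval began at 7120 TPM, and HELITRON-18_EF, whose interval ended at 5388. HELITRON-26_EF, HELITRON-10_EF and HELITRON-53_EF thus stood above every other Helitron outside those pairs.

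Model length separated a single member from the rest. HELIBAT1, the autonomous HeliBat element, is 5503 nt long and the only Helitron model of 3000 nt or more. Models under that length were taken here as too short to hold the whole Rep/helicase frame. The next in length were HELITRON-16_EF (2384 nt), HELITRON-60_EF (2317 nt), HELIBATN2 (2174 nt) and HELITRON-10_EF (2154 nt), and the median was 560 nt. HELIBAT1 had 195 expected counts, which is 1.98% of the Helitron reads (1.71 to 2.27%), and ranked 15 by count. The 84 shorter models held the other 98.0%.

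Per length, HELIBAT1 was read less than the short models pooled. It had 35.5 counts per kilobase, against 148 for the 84 short models together, a ratio of 0.240 (0.207 to 0.276, exact interval of a ratio of 2 counts). Without HELITRON-10_EF the short models had 121 counts per kilobase. Its TPM of 330 (282 to 374) ranked 58, with 27 Helitrons below it, and the median over all 85 was 700.07. HELIBAT1 was therefore at a lower density than the pooled short models, though not at the bottom of the order. Of the 4 models next in length, HELITRON-16_EF was close to it, at 37.5 counts per kilobase and 351 TPM (277 to 428). HELIBATN2 was lower, at 3.91 counts per kilobase. HELITRON-60_EF and HELITRON-10_EF were higher, at 92.8 and 952. A low density was thus not particular to HELIBAT1.

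**Figure D2:**
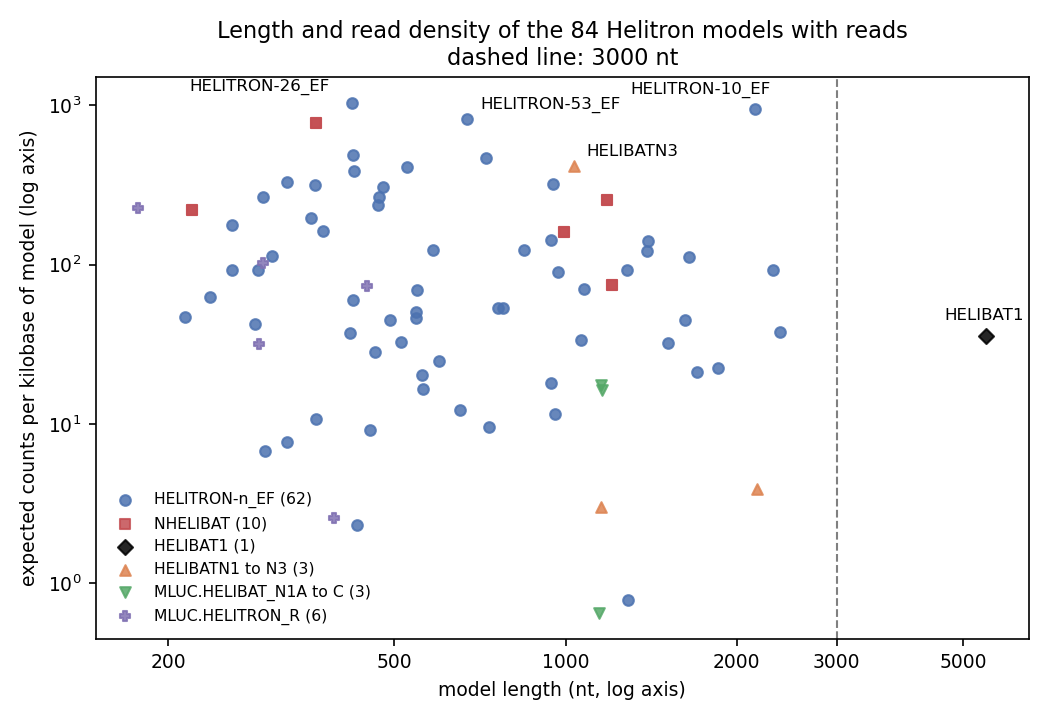
Expected counts per kilobase (y axis, log scale) against model length in nt (x axis, log scale) for the 84 Helitron models with a count above 0, with the name groups by colour and marker. HELIBAT1 lies alone to the right of the 3000 nt line at 35.5 counts per kilobase, and the shorter models spread from 0.646 (MLUC.HELIBAT_N1B) to 1038 (HELITRON-26_EF).

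Among the shorter models, density did not follow length in a simple way. The 13 models under 300 nt had 117 counts per kilobase, the 24 models of 300 to 500 nt had 233, the 23 of 500 to 1000 nt had 142 and the 20 of 1000 to 2000 nt had 85.2. The 4 models of 2000 to 3000 nt had 262, but 45.5 without HELITRON-10_EF. Against the others of that length, the TPM of HELITRON-10_EF was 10.3 times that of HELITRON-60_EF (8.92 to 11.9), 25.4 times that of HELITRON-16_EF (20.4 to 31.5) and 244 times that of HELIBATN2 (131 to 600.2). Across the 85 models, Spearman's rho between length and expected count was 0.277 and between length and TPM -0.187. These are descriptions of models that share 1 library and, in part, reads; over all 511 models the values were 0.149 and -0.0850, and over the 377 models of the file with at least 1 count 0.118 and -0.304.

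Models of nearly equal length could differ greatly. HELITRON-26_EF (421 nt), HELITRON-18_EF (423 nt), HELITRON-21_EF (423 nt), HELITRON-27_EF (425 nt) and HELITRON-7_EF (418 nt) had 437, 206, 25.4, 165 and 15.7 counts. The TPM of HELITRON-26_EF was 2.13 times that of HELITRON-18_EF (1.80 to 2.53), 2.68 times that of HELITRON-27_EF (2.23 to 3.22), 17.3 times that of HELITRON-21_EF (11.7 to 27.4) and 27.7 times that of HELITRON-7_EF (16.5 to 47.8). As HELITRON-26_EF had the highest TPM of the 85 models, each ratio had to lie above 1. The intervals cover counting error only. At 324 nt, HELITRON-30_EF had 107 counts and HELITRON-35_EF had 2.48. These models were picked for their matching lengths after their values were seen.

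By name, the Helitrons fell into 6 groups. The numbered models with the ending _EF, the initials of the bat studied, were the largest group, with 62 models and 74.1% of the Helitron reads (73.2 to 74.9%). Of these 62, 53 had at least 10 counts and 20 had at least 100. Their counts ran from 1 to 2051 with a median of 41.5, and their density was 154 counts per kilobase, or 116 without HELITRON-10_EF. Without that model the group still held 53.2% of the Helitron reads.

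The 10 NHELIBAT models, of 220 to 1207 nt, took the next share, 17.9% of the reads (17.2 to 18.7%) on 11.8% of the models. All 10 had at least 10 counts. Their density, 223 counts per kilobase, was above that of each other name group, and they held 22.4% of the Helitron TPM. Because they come in equal pairs, their density per distinct model is not given by these values. Together with HELIBAT1, the HELIBATN models and the MLUC.HELIBAT_N1 models, 17 models with HELIBAT in the name had 2441 counts, 24.8% of the Helitron reads.

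Among the HELIBATN models, the non-autonomous relatives named after HeliBat, nearly all reads fell on 1 member. HELIBATN3 had 427.5 counts, HELIBATN2 had 8.50 and HELIBATN1 had 3.45, so that HELIBATN3 held 97.3% of the group. The TPM of HELIBATN3 was 107 times that of HELIBATN2 (57.3 to 266) and 139 times that of HELIBATN1 (54.3 to 778). It was also 11.9 times that of HELIBAT1 (10.04 to 14.2). HELIBAT1 in turn was 9.01 times above HELIBATN2 (4.76 to 22.5) and 11.7 times above HELIBATN1 (4.52 to 65.6). The level of the autonomous model thus lay between those of the 3 models named as its non-autonomous relatives.

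The Helitron models with the prefix MLUC had few reads. In other classes, models with that prefix could be much read, as MLUC.TC2_122_ORF was with 2375 counts. MLUC.HELIBAT_N1A, N1B and N1C, all within 1146 to 1160 nt, had 20.2, 0.740 and 19.0 counts. HELIBATN1, of 1154 nt, is close to them in name and length, and the 4 together had 43.4 counts, or 9.40 per kilobase. The 6 MLUC.HELITRON_R models, of 177 to 448 nt, had 113 counts in all. Their most read member, MLUC.HELITRON_R25, is the shortest Helitron model at 177 nt and had 40.1 counts, which gave a TPM of 2424 (1729 to 3217). The next shortest were HELITRON-23_EF of 214 nt with 10 counts, and NHELIBAT2A_PSU and NHELIBAT2_PS of 220 nt with 48.25 counts each. HELITRON-62_EF, of 237 nt, had 14.8 counts. All 9 MLUC Helitron models together held 1.55% of the Helitron reads (1.32 to 1.82%).

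At the low end, 15 models had under 10 counts and 7 had under 3. A count of 0 was given to 128 of the 511 models of the file. Among Helitrons it was given only to MLUC.HELITRON_R385A, of 380 nt. Taking 3 reads as the limit that a count of 0 allows gives 78.0 TPM at that length. The two-sided exact interval used for the other counts ends at 3.69 reads for a count of 0. The deposited interval of this model ended at 79.9 TPM. MLUC.HELITRON_R385B and HELITRON-34_EF had 1 count each, HELITRON-51_EF had 1.01 and HELITRON-20_EF had 2. Their levels are poorly fixed at so few reads, and the interval of HELITRON-34_EF ran from 1.27 to 108 TPM. Just below and just above 10 counts stood HELITRON-48_EF with 9.27 and HELITRON-23_EF with 10.

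The NHELIBAT models formed 5 pairs with equal length, expected count and TPM. NHELIBAT1A_CRA and NHELIBAT1_CR, both of 364 nt, were each given 282.84 counts and 7699 TPM. The deposited interval of the first ran from 0.0421 to 14470.2 TPM and that of the second from 0.311 to 14818. NHELIBAT1A_NHU and NHELIBAT1_NH (1183 nt) had 303.13 counts and 2421 TPM each, with intervals of 4.96 to 4675 and 11.1 to 4730.47. NHELIBAT1A_LBO and NHELIBAT1_LB (993 nt) had 159.31 counts each, NHELIBAT1A_PSU and NHELIBAT1_PS (1207 nt) 89.48 each, and NHELIBAT2A_PSU and NHELIBAT2_PS (220 nt) 48.25 each. The upper bound of each of the 10 was 1.78 to 2.10 times its TPM, and the lower bounds were at most 214 TPM. An equal division of reads between the names of a pair is thus what the file reports, with an interval that spans from almost none to about all of the pair. Whether the sequences of a pair are the same was not tested, since no model sequence was used here.

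**Figure D3:**
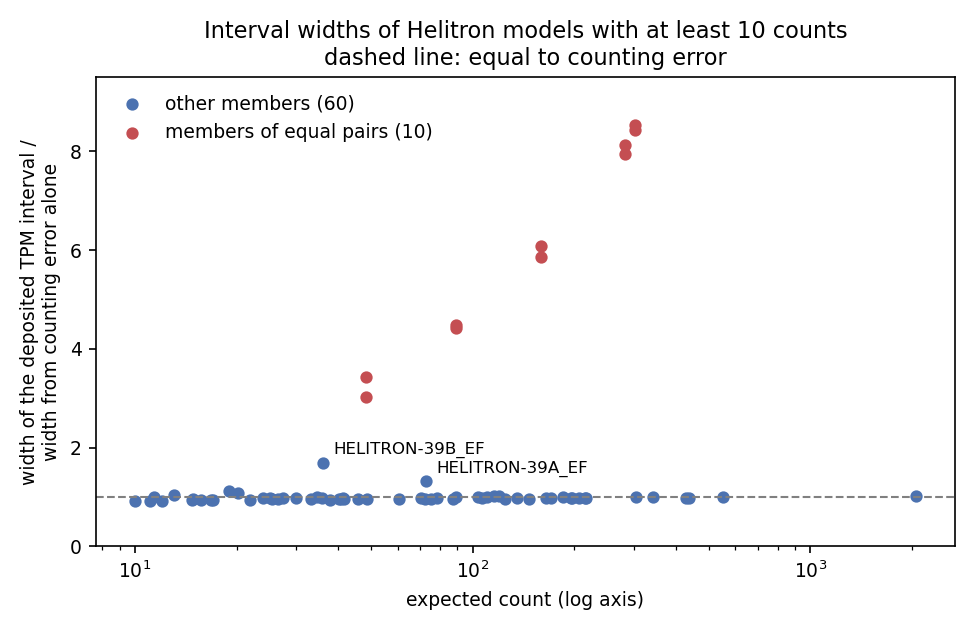
Width of the deposited TPM interval divided by the width that counting error alone gives (y axis), against expected count (x axis, log scale), for the 70 Helitron models with at least 10 counts. The 10 members of equal pairs lie at 3.03 to 8.53, and the other 60 lie near 1, except HELITRON-39B_EF at 1.70 and HELITRON-39A_EF at 1.32.

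Merging each pair changed the order of the Helitrons. With 80 entries in place of 85, the merged NHELIBAT1A_NHU and NHELIBAT1_NH had 606 counts (559 to 656) and ranked 2 after HELITRON-10_EF. The merged NHELIBAT1A_CRA and NHELIBAT1_CR had 566 counts (520.02 to 614) and, at 15398 TPM, the highest level of all, above the 10183 of HELITRON-26_EF. The 5 pairs together held 1766 counts. The 10 most read entries then held 59.1% of the Helitron reads.

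Outside the pairs, the deposited intervals were about as wide as counting error. Their width was 0.973 times that from counting alone in the median of 60 models, with a range of 0.912 to 1.70. The widest belonged to HELITRON-39B_EF (1701 nt, 36.05 counts, 96.5 to 327 TPM) and HELITRON-39A_EF (1623 nt, 72.7 counts, 286 to 550.2 TPM), a pair of models whose names differ by a letter. By counting error alone the TPM of HELITRON-39A_EF was 2.11 times that of HELITRON-39B_EF (1.41 to 3.26), but the deposited intervals of the 2 models overlapped. MLUC.HELIBAT_N1C came next at 1.11. For the 22 models outside the pairs with at least 100 counts, the interval spanned 0.0881 to 0.392 of the TPM, and for the 38 with 10 to 100 counts 0.413 to 1.26.

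Most expected counts were not whole numbers, which such an estimate gives when reads fit more than 1 model. As few as 1 divided read can do so, and the share of such counts does not measure how many reads were divided. Of the 83 Helitrons with at least 1 count, 73 (88.0%) were more than 0.01 away from a whole number, against 82.7% of 294 models of the other classes. The share was higher for hAT (96.4%), SINE (91.9%), Tc/mariner (90.3%) and LINE models (100%). It was lower for ERV (76.5%), DNA/DNA (76.5%), PiggyBac (75%) and LTR models (56.25%). The largest count of a Helitron within 0.01 of a whole number was the 23.99 of HELITRON-57_EF.

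Set beside the other classes of the file, most Helitron models had reads. The top model held a smaller share of its class's reads than in most of the classes compared. The share with at least 10 counts, 82.4%, was close to that of SINEs (81.4% of 43) and LINEs (79.2% of 24). It was 54.0% for the 50 hAT models, 39.6% for the 48 Tc/mariner models, 39.8% for the 191 ERV models and 25.0% for the 16 PiggyBac models. The classes differ in how their models were chosen, and models are not replicates, so these differences were not tested. The most read model held 20.8% of the Helitron reads, against 9.22% for SINEs, 31.4% for hAT, 38.1% for Tc/mariner and 48.9% for LINEs. These shares were not adjusted for the number of models in a class.

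**Figure D4:**
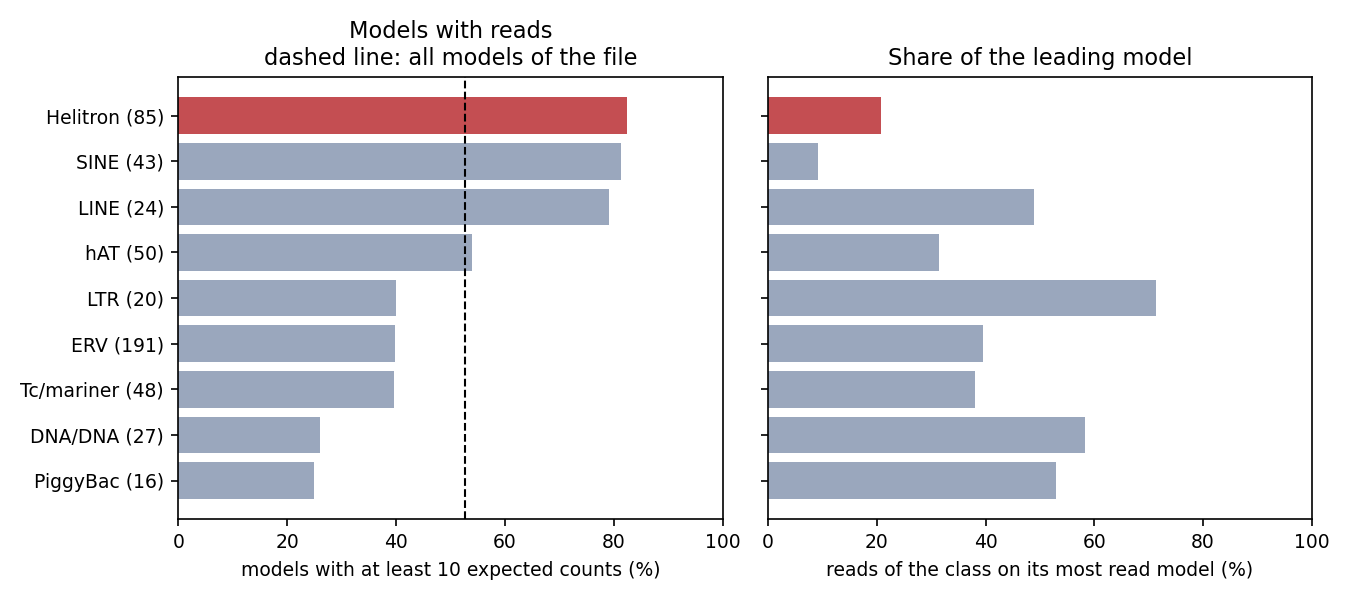
Left, the percentage of models with at least 10 expected counts in 9 classes of the bat file, with the number of models in brackets and the value over all 511 models (52.6%) as a dashed line. Right, the percentage of a class's reads on its most read model; Helitrons (red) are at 82.4% on the left and 20.8% on the right.

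Pooled Helitron read density was near the average of the file, while the median level was not. Pooled, Helitrons had 139 counts per kilobase of model, against 122 for all other classes together. SINEs had 790.3 and Tc/mariner elements 203, hAT elements 171, LINEs 122 and ERVs 40.7. Without HELITRON-10_EF the Helitrons had 114. Over all models, the median TPM was 700.07 for Helitrons and 141.31 for the other classes. Among models with at least 10 counts, the medians were 987 and 886. That limit kept 82.4% of the Helitrons but 46.7% of the other models. The other DNA transposon classes, pooled, had 150 counts per kilobase. Their median TPM was 109 over all models, below that of Helitrons. Among models with at least 10 counts, 40.6% of them, it was 1513, above that of Helitrons.

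The dog and horse files each hold 4 Helitron models, with other names than those of the bat: Helitron1Na_Mam, Helitron1Nb_Mam, Helitron2Na_Mam and Helitron3Na_Mam. Each was listed at 0 TPM in both species. The upper bounds of the deposited intervals were 6.34 to 23.1 TPM in dog and 7.04 to 25.5 TPM in horse. TPM is scaled within each file over different models, so these bounds are no measure of a difference from the bat.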

How the data were processed

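Per the labels, the mRNA libraries came from adult testes, 1 per species. Bowtie, RSEM and the dog build CanFam3.1 stand in the submitters' processing notes for every sample, with no versions; the reference for bat and the read length of this library are not given in the sources used. Expected counts, TPM and the bounds of the TPM intervals (on the scale of a signal) are the authors' deposited values, as the file headers name them; the confidence level of these intervals is not given. Expected counts were rounded only for intervals. In the bat file, TPM was proportional to the expected count over the length minus 24.0 nt (largest deviation 0.00489% over 101 models with at least 100 counts), and 3 reads were turned into TPM with that length.

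Members, lists and name groups were chosen with earlier results of these data known. Named models were the 10 with most counts and the 10 with highest TPM, the 5 longest and 5 shortest, the leader of each name group and those at 0; others were chosen after their values were seen. Intervals are exact (binomial, Poisson or a ratio of 2 counts, 95%) and cover counting error only. Equal pairs share length, count and TPM as written. The scripts (Python 3.11.15, pandas 2.3.3, scipy 1.17.1) were tested on simulated whole counts. No simulated read fitted more than 1 model, so the division of shared reads was not covered. The small RNA files were not used here, since no Helitron sequence was at hand to place them on.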

Additional observations from a re-analysis of the deposited data

How the results depend on the processing

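Alternatives were computed for 6 values, 23 in all. Of these, 12 stayed within the interval of the main value (or within 1.5 times for a count of models) and 11 moved. Some of the 12 could not have moved. A cut at 5000 nt and a choice of members by class or name kept the same models. With 85 members, lower count limits could not pass 1.5 times. The share of TPM was judged against a wide range of 8.35 to 17.7%, made by summing the deposited bounds of the single models. Since the models cannot all lie at the same end, that range is no interval of the share, and staying within it says little. Some of the 11 were bound to move, because counting intervals are narrow. Leaving out HELITRON-10_EF, with 20.8% of the Helitron reads, is such a case. The tally therefore does not measure how stable the values are. Only the density ratio has a direction to reverse, and it did not in the alternatives tried. The Helitron share of reads was 18.5% among models of known class, 19.96% without L1-4A_EF, the most read model of the file, 14.5% without HELITRON-10_EF and 14.9% without the equal pairs. The share of Helitron reads on long models was 48.7% when long meant 1000 nt or more (25 models) and 2.50% without HELITRON-10_EF, against 1.98%. The ratio of read density of long over short models was 0.697 from 1000 nt and 0.294 without HELITRON-10_EF. Its size rests on the length chosen, and it stayed below 1 at the cuts tried. A cut at 2000 nt was not among them. The 4 models of 2000 to 3000 nt had 262 counts per kilobase, the most of any length group, but 45.5 without HELITRON-10_EF. With that model kept, the direction could differ at such a cut. The 10 most read models held 53.6% of reads, the 10 of highest TPM 50.4%, the 10 after HELITRON-10_EF 44.2% of the rest, and the 10 leading entries with pairs merged 59.1%. Merging pairs and leaving them out were added after seeing the data. The bat file gives no posterior mean, so the alternatives that needed one were not run. No paired analysis was possible because each group held 1 library. Depth limits most the 15 models with under 10 counts, whose intervals are wide relative to their TPM.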

Other observations

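Equal pairs were not limited to Helitrons. Of 6 such pairs with reads in the bat file, 5 were NHELIBAT pairs and 1 was a pair of hAT models, NHAT-3A_NHU and NHAT3_NH. A median, a count of models or a rank that treats each name as a separate family counts both entries of a pair.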
